A study of Homo sapiens with 12 samples.

Results

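Autophagy and mitophagy cargo receptors were examined in this set of 12 mRNA libraries from human chronic myeloid leukemia cells. The 10 genes were chosen by name and not by a rule on their values, though earlier results of these data were known. All 10 were found among the 19447 gene symbols of the count table. They are SQSTM1 (p62), NBR1, OPTN, CALCOCO2 (NDP52) and TAX1BP1, the soluble receptors that bind ubiquitin, BNIP3, BNIP3L (NIX) and FUNDC1 of the mitochondrial outer membrane, PHB2 of the inner membrane, and PINK1, the kinase that marks damaged mitochondria. Each passed the filter on low counts in every comparison.

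K562 is a cell line from chronic myeloid leukemia that carries the BCR-ABL fusion kinase, and imatinib (IM) inhibits that kinase. K562/IM is a resistant line that the study derived from K562 by stepwise exposure to imatinib and maintained at 5 µM, so that it represents 1 selected line. The 4 groups, with 3 libraries each, were untreated K562, K562 with 6 µM lycorine (K562+L), K562/IM, and K562/IM with 6 µM lycorine (K562/IM+L). Lycorine is a plant alkaloid, and how long the sequenced cells were exposed to it is not stated in the sources used here. The sample labels give the last group another group number than the study's own plots do, so the text speaks of the labelled K562/IM+L libraries, and each direction drawn from them rests on that label.

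Selective autophagy removes a chosen cargo by means of receptors that hold the cargo and, through a short LIR motif, an ATG8 protein (LC3 or GABARAP) on the growing autophagosome membrane. In the ubiquitin route, PINK1 builds up on damaged mitochondria, these gain a coat of ubiquitin, and OPTN and CALCOCO2 bind that coat. BNIP3, BNIP3L and FUNDC1 bind ATG8 proteins without ubiquitin, and BNIP3L is known for clearing mitochondria from maturing red cells. A transcript level does not measure autophagic flux or protein, and receptors such as p62 are themselves degraded by autophagy.

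Total counts ran from 75093844 to 107344598 per library, and levels are given as CPM, counts scaled to a common TMM-normalized library size. Differences are given as log2 fold changes (log2FC) with their standard errors (SE) from the quasi-likelihood test of edgeR, and a gene was called at an adjusted p under 0.05 (Benjamini-Hochberg over all genes tested in that comparison). A second rule also asked for an absolute log2FC over 1. The labels do not say whether the 3 libraries of a group came from separate cultures, so the p-values measure the spread between these libraries only. Low counts lay near multiples of 4 more often than whole numbers do, and the origin of this was not tested. The labelled cell type was checked by its markers. All 10 markers of K562 cells, among them the fetal and embryonic globins, reached 1 CPM in every group, whereas 8 markers of other blood cells summed to at most 4.44 CPM in any library and MS4A1 was at 0 in all 12. The 7 markers of stroma, vessels and epithelia summed to between 67.3 and 132.6 CPM, most of it EPCAM, which ran from 42.8 to 48.0 CPM in K562/IM and from 84.3 to 132 in the other groups. COL1A2 went the other way, at 15.4 to 18.1 CPM in K562/IM and at most 0.0882 in any other library, as did COL1A1, at 2.80 to 5.26 against at most 0.692, and PECAM1, at 0.947 to 1.44 against at most 0.129. The part of these cell markers in the comparisons with K562/IM was not tested. The summed K562 markers were far from level between groups, at 6177 to 8534 CPM in K562, 4081 to 4674 in K562+L, 2789 to 3029 in K562/IM and 32504 to 45770 in the labelled K562/IM+L libraries. Globins weigh most in these sums, with HBG2 alone at a mean of 3327 CPM in K562. Against K562, 0 of the 10 markers were higher and 7 lower in K562+L, and 1 was higher and 7 lower in K562/IM. The backgrounds were 37.3% and 57.1% called. All 10 were higher in the labelled K562/IM+L libraries than in K562/IM, beside 33.2% higher over all genes. HBE1 was higher in K562/IM, at a mean of 544 CPM against 97.6 in K562. GATA1 and TAL1 were called in neither K562+L nor K562/IM against K562. Fewer cells of a kind and less RNA per cell cannot be told apart in such bulk libraries.

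The sequence before the start of a transcript is where transcription factors can bind, and 3 receptors whose transcripts differed between groups are shown. RefSeq windows (GRCh38.p14) of 250 bases before to 50 bases after a start were matched for 8 of the 10 receptors, by symbol and by the start nearest to the principal GENCODE transcript. The stretches printed overlap no annotated exon of the gene. OPTN is at chr10:13099959-13100081 on the plus strand and NBR1 at chr17:43170209-43170408 on the plus strand, both ending at the base before the RefSeq start. The OPTN stretch lies inside the gene as GENCODE draws it, which begins at 13099449 with a principal transcript from 13099603, so that it follows that start and precedes a later one. The NBR1 stretch lies before the GENCODE gene. BNIP3 is at chr10:131982014-131982173 on the minus strand, and its last base is 91 bases before the RefSeq start and next to the GENCODE start. Capitals mark GC boxes (GGGCGG or CCGCCC), in NBR1 also a GATA site (AGATAA or TTATCT), and in BNIP3 also a palindromic E-box (CACGTG), which contains the hypoxia response core (ACGTG or CACGT) on both strands.
OPTN: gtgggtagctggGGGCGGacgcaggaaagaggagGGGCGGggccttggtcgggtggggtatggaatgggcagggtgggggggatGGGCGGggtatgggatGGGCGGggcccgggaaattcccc
NBR1: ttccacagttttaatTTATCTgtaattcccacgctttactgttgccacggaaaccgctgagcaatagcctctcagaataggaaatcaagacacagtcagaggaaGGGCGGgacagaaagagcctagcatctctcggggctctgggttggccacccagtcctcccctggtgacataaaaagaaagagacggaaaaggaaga
BNIP3: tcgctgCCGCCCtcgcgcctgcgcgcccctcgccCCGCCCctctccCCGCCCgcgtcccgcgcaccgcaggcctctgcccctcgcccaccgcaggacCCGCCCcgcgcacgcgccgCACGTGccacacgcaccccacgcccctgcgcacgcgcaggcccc
The OPTN stretch holds 4 GC boxes, beginning 111, 89, 39 and 23 bases before the start. The NBR1 stretch holds 1 GATA site at 185 bases and 1 GC box at 96 bases before the start. The BNIP3 stretch holds the E-box at 134 bases and GC boxes at 244, 216, 204 and 153 bases before the start. Among 35116 RefSeq windows of the same length, searched on both strands, 45% held a GC box, 21.4% the hypoxia response core, 13.3% an antioxidant response element core (TGACNNNGC), 10.3% a GATA site, 7.71% an AP-1 site (TGANTCA), 7.26% the E-box and 3.62% an amino acid response element core (TGATGNAA). A GC box was found in the windows of all 8 receptors, a GATA site in that of NBR1, and the E-box in that of BNIP3. The hypoxia response core was in the windows of BNIP3 and CALCOCO2, and the antioxidant response element core in that of CALCOCO2. The AP-1 site and the amino acid response element core were in none of the 8. These are matches of letters and not sites shown to be bound. Only the window of the chosen start was searched for each receptor, so that sites farther away or at other starts were not looked for.

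In untreated K562 the receptors were all transcribed, at mean levels from 23.3 CPM for FUNDC1 to 287 CPM for PHB2. Per kilobase of summed exon length, PHB2 stood first in each of the 4 groups, with 115 CPM per kb in K562 and 46.5% of the sum over the 10 genes. Its share of that sum was 27.7% in the labelled K562/IM+L libraries. TAX1BP1 came second in K562 with 23.5 CPM per kb, SQSTM1 second in K562+L, with 40.5 CPM per kb, and in K562/IM, and OPTN second in the labelled K562/IM+L libraries with 54.2 CPM per kb. With the longest transcript as the length, SQSTM1 stood above OPTN there. PINK1 was last in K562, at 6.12 CPM per kb.

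**Figure D1:**
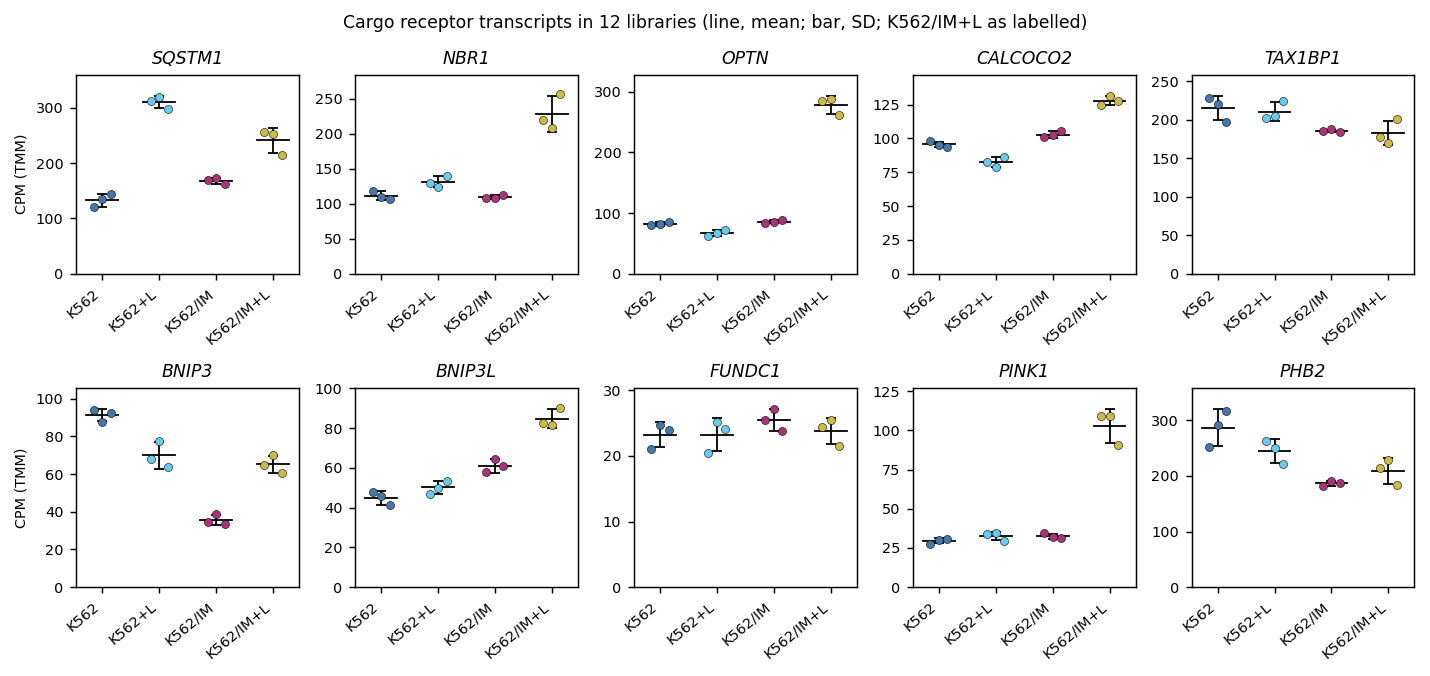
The panels plot CPM (TMM) on a linear axis from 0 for each receptor and library, by group, with a line at the mean and a bar for the SD (n = 3). SQSTM1 is highest in K562+L, BNIP3 is highest in K562, and OPTN, PINK1 and NBR1 stand apart in the labelled K562/IM+L libraries, while the 4 groups of FUNDC1 overlap.

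The first comparison asked what lycorine did to the receptors in parental K562. SQSTM1 was the receptor that rose, BNIP3 and OPTN fell by less, and 7 of the 10 were not called. The 1 higher and 2 lower calls stand beside a background of 37.3% called among 12927 genes (18.2% higher, 19% lower), and the median log2FC was -0.017 over the 10 receptors against -0.0001 over all genes. By both rules together only SQSTM1 was called, with a background of 6.39%. The libraries of both groups did not overlap for 5 receptors, with a background of 51.5%.

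SQSTM1, the p62 receptor that gathers ubiquitinated protein and organelles (chromosome 5, 179806398 to 179838078 in GENCODE, GRCh38), stood at 120, 134 and 144 CPM in the K562 libraries and at 313, 320 and 298 in K562+L. The treated libraries lay far above the untreated ones. The log2FC was 1.23 (SE 0.092, adjusted p = 1.7e-04), a 2.34-fold rise. BNIP3, a hypoxia-inducible receptor of the outer membrane (chromosome 10, 131966455 to 131982013), read 93.9, 87.8 and 92.2 CPM in K562 and 68.2, 77.4 and 63.9 in K562+L. It fell by 0.39 on the log2 scale (SE 0.097, adjusted p = 0.017), and the groups did not overlap. The call was lost without K562+L replicate 1 (adjusted p = 0.064) or K562+L replicate 3 (adjusted p = 0.067). OPTN, a receptor that TBK1 activates (chromosome 10, 13099449 to 13138308), read 79.7, 81.8 and 85.8 CPM in K562 and 62.4, 67.9 and 71.8 in K562+L, again without overlap. It fell by 0.29 (SE 0.088, adjusted p = 0.033), but the call was kept in only 1 of the 6 fits that each left out a library, that without K562 replicate 1, and the adjusted p was 0.053 to 0.11 in the other 5.

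NBR1, a receptor related in build to p62 (chromosome 17, 43170481 to 43211689), had a log2FC of 0.24 (adjusted p = 0.069) and CALCOCO2 one of -0.21 (adjusted p = 0.070), and both did not overlap between the groups without passing the test. With DESeq2 in place of edgeR both were called (adjusted p = 0.049 and 0.047). PHB2 differed by -0.23 (adjusted p = 0.14), BNIP3L by 0.16 (adjusted p = 0.23) and PINK1 by 0.13 (adjusted p = 0.32). TAX1BP1 read 228, 220 and 197 CPM in K562 and 202, 204 and 224 in K562+L, means of 215 ± 15.8 and 210 ± 12.2 (SD, n = 3). FUNDC1 had means of 23.3 ± 1.96 and 23.3 ± 2.54 (SD, n = 3). All 5 of these receptors overlapped between the groups.

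Another comparison set the resistant line against its parent. K562/IM was maintained at 5 µM imatinib and K562 without it, so that selection and continued drug cannot be told apart. BNIP3 was lower in K562/IM by more than any other receptor, PHB2 and TAX1BP1 were lower as well, and BNIP3L and SQSTM1 were higher. These 2 higher and 3 lower calls stand beside a background of 57.1% among 13406 genes (30.1% higher, 27.1% lower). Only BNIP3 was called by both rules, with a background of 19.1%. The groups did not overlap for 7 receptors, with a background of 66.6%.

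BNIP3 stood at 34.5, 38.7 and 33.6 CPM in K562/IM, where the lowest K562 library held 87.8. The log2FC was -1.36 (SE 0.082, adjusted p = 1.0e-05), so that K562/IM held 0.39 times the level of K562. The annotation lists pseudogenes of BNIP3, SQSTM1 and PHB2, and how reads shared with them were counted is not given. BNIP3L moved the other way, from 47.6, 46.0 and 41.1 CPM in K562 to 57.7, 64.5 and 60.7 in K562/IM, a log2FC of 0.44 (SE 0.086, adjusted p = 0.0032) without overlap. PHB2, a prohibitin of the inner membrane that is exposed to LC3 when the outer membrane breaks (chromosome 12, 6965327 to 6970825), read 251, 292 and 317 CPM in K562 and 182, 190 and 188 in K562/IM. Its log2FC was -0.62 (SE 0.094, adjusted p = 9.2e-04). SQSTM1 rose to 170, 173 and 162 CPM, all above the K562 libraries, with a log2FC of 0.34 (SE 0.085, adjusted p = 0.0097). Both comparisons share the K562 libraries.

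TAX1BP1, a receptor close to CALCOCO2 in sequence, read 228, 220 and 197 CPM in K562 and 185, 187 and 184 in K562/IM. Its log2FC was -0.21 (SE 0.075, adjusted p = 0.041). The call was lost with upper-quartile normalization (adjusted p = 0.083), with either other low-count filter (adjusted p = 0.052 each), and without K562 replicate 2 or any 1 of the 3 K562/IM libraries (adjusted p = 0.097 to 0.14). NBR1, OPTN, CALCOCO2, FUNDC1 and PINK1 were not called, with log2FCs from -0.02 for NBR1 to 0.14 for PINK1.

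**Figure D2:**
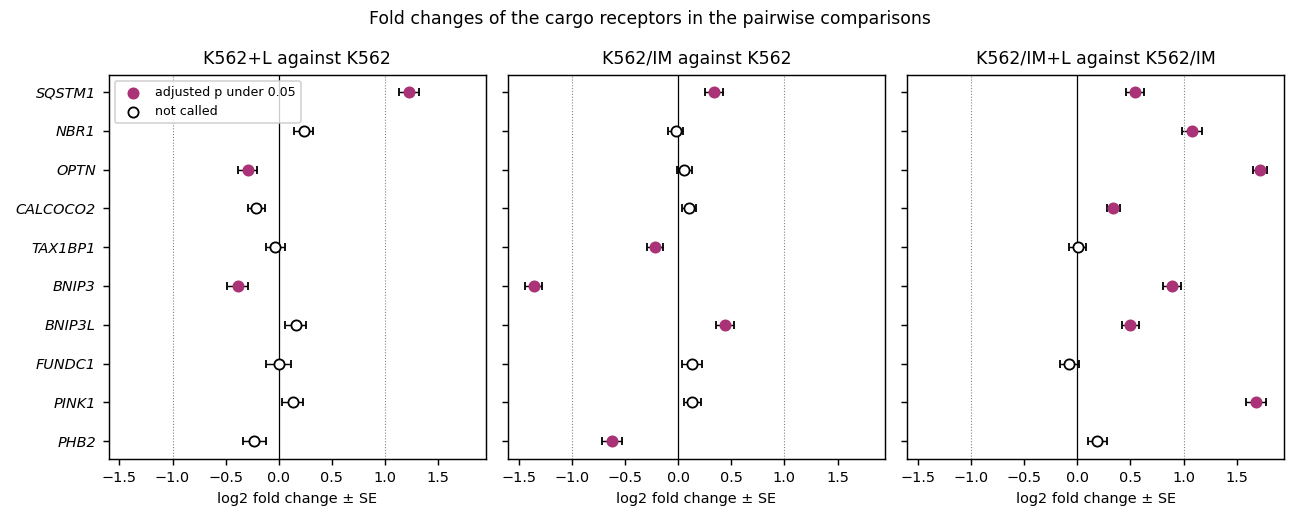
Each panel plots the log2FC ± SE of the 10 receptors in 1 comparison (6 libraries), filled where the adjusted p was under 0.05, with dotted lines at -1 and 1. SQSTM1 passes the line in K562+L, BNIP3 in K562/IM, and OPTN, PINK1 and NBR1 in the labelled K562/IM+L libraries.

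BNIP3 and BNIP3L encode related receptors, and the ratio of their levels per kilobase within a library does not depend on scaling between libraries. The BNIP3L to BNIP3 ratio averaged 0.608 ± 0.0508 in K562, 0.894 ± 0.123 in K562+L, 2.12 ± 0.0966 in K562/IM and 1.62 ± 0.199 (mean ± SD, n = 3 each) in the labelled K562/IM+L libraries. The 3 K562 libraries lay between 0.551 and 0.647 and the 3 K562/IM libraries between 2.06 and 2.23. Which of both genes was higher depended in part on the length used. With the longest transcript, the ratio was 0.548 to 0.710 in K562+L and 0.994 to 1.26 in the labelled libraries. The log2 ratio was higher by 1.80 in K562/IM than in K562, by 0.55 in K562+L than in K562 and by 1.41 in the labelled K562/IM+L libraries than in K562, and it differed by -0.40 between the labelled libraries and K562/IM. No pair of groups compared overlapped. Each of these 4 comparisons gave p = 0.1 in a two-sided exact permutation test, the smallest p that 3 against 3 libraries allow.

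**Figure D3:**
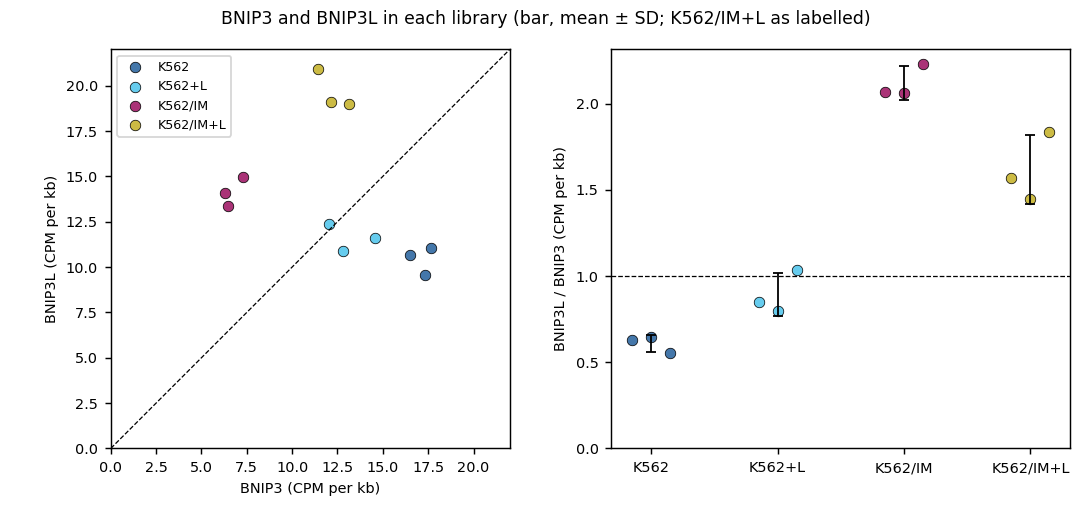
The left panel plots BNIP3L against BNIP3 in CPM per kb for the 12 libraries, with a dashed line where both are equal, and the right panel plots their ratio by group with bars for the mean ± SD (n = 3). By summed exon length, the K562 libraries lie below the line of equal level and K562+L lies near it. K562/IM and the labelled K562/IM+L libraries lie above it. These positions depend on the length used.

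A further comparison set the labelled K562/IM+L libraries against K562/IM. In these libraries 7 receptors were higher and 0 lower, led by OPTN, PINK1 and NBR1, and PHB2, TAX1BP1 and FUNDC1 were not called. The background was 66.8% called among 13727 genes, nearly even in direction (33.2% higher, 33.6% lower). The median log2FC was 0.52 over the 10 receptors against -0.0069 over all genes tested. By both rules 3 receptors were called, with a background of 28.5%, and 7 did not overlap, with a background of 73.4%.

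OPTN rose from 83.8, 85.7 and 88.3 CPM in K562/IM to 286, 288 and 261 in the labelled libraries. This was a 3.29-fold rise, with a log2FC of 1.72 (SE 0.069, adjusted p = 1.3e-06). PINK1, which phosphorylates ubiquitin on damaged mitochondria, rose from 34.4, 31.8 and 31.4 CPM to 109, 109 and 90.6. The log2FC was 1.68 (SE 0.092, adjusted p = 5.1e-06). An antisense gene, PINK1-AS, overlaps PINK1 in the annotation (chromosome 1, 20633455 to 20651511 for PINK1), and whether the counting used strand is not given, so that reads of both cannot be told apart. NBR1 rose from 109, 108 and 113 CPM to 220, 208 and 257, a log2FC of 1.08 (SE 0.095, adjusted p = 4.8e-05).

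BNIP3 and BNIP3L of the outer membrane rose as well. BNIP3 went from the 34.5, 38.7 and 33.6 CPM given above to 64.8, 69.9 and 60.7, a log2FC of 0.89 (SE 0.085, adjusted p = 7.1e-05). It remained under every K562 library. BNIP3L rose to 82.3, 81.7 and 90.2 CPM, its highest level of the 4 groups, with a log2FC of 0.50 (SE 0.077, adjusted p = 8.6e-04). SQSTM1 stood at 256, 252 and 215 CPM in the labelled libraries, above K562/IM (log2FC 0.54, SE 0.082, adjusted p = 7.7e-04) and under each K562+L library. CALCOCO2, the receptor that also clears bacteria, rose by less, from 101, 102 and 105 CPM to 124, 131 and 128, with a log2FC of 0.34 (SE 0.063, adjusted p = 0.0022). TAX1BP1 was at 185 ± 1.71 (SD, n = 3) and 183 ± 15.8 (SD, n = 3) CPM, and FUNDC1 had a log2FC of -0.08 (adjusted p = 0.49). PHB2 had one of 0.19 (adjusted p = 0.10) and was called at 0.27 (adjusted p = 0.0016) when K562/IM+L replicate 3 was left out.

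Markers of red cell maturation also differed between the groups. The 12 markers, among them adult globins and ALAS2, summed to 1895 to 2209 CPM in K562 and 1345 to 1624 in K562+L. The sums were 820 to 902 in K562/IM and 12782 to 16714 in the labelled K562/IM+L libraries, where all 12 rose against K562/IM. HBA1 and HBA2 weigh most in K562, with means of 766 and 675 CPM. Against K562, 1 marker was higher and 6 lower in K562+L, and 0 higher and 10 lower in K562/IM. The backgrounds were 37.3% and 57.1% called. In K562+L SLC25A37 was the higher one (log2FC 0.31, adjusted p = 0.022), and ALAS2 was not called (0.16, adjusted p = 0.26). The markers of other blood cells in the labelled libraries summed to at most 2.14 CPM. ABCB1, the drug efflux pump, stood at 21.9 to 25.8 CPM in K562/IM and at 0.490 to 1.06 in the labelled libraries, under the 1.68 to 1.86 of K562. The part of these differences in the receptor results was not tested.

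The labelled K562/IM+L libraries were also set against K562, which shares libraries with the comparisons above. Of the receptors 6 were higher and 2 lower, beside a background of 56% among 13307 genes (28.2% higher, 27.8% lower). By both rules it was 3 (PINK1, OPTN and NBR1), with a background of 23.8%, and 8 receptors did not overlap, with a background of 63.6%. PINK1 had the largest log2FC with 1.78 (SE 0.11, adjusted p = 2.5e-05), then OPTN with 1.73, NBR1 with 1.01, BNIP3L with 0.89, SQSTM1 with 0.84 and CALCOCO2 with 0.40. BNIP3 was lower by 0.51 on the log2 scale (-0.51, adjusted p = 0.0025) and PHB2 by 0.48 (-0.48, adjusted p = 0.016). The PHB2 call was lost with upper-quartile normalization (adjusted p = 0.063) and without K562 replicate 2 (adjusted p = 0.055). TAX1BP1 was at -0.26 (adjusted p = 0.055).

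An interaction term in a fit of all 12 libraries took the difference labelled lycorine in K562/IM minus that in K562. It reads as a difference of lycorine effects only if the label of the K562/IM+L libraries holds. It was above 0 for 7 receptors and under 0 for SQSTM1, beside a background of 61.7% among 13995 genes (29.9% above, 31.7% under). With an absolute value over 1 as well it was 3 (OPTN, PINK1 and BNIP3), with a background of 33.7%. SQSTM1 rose in K562+L and in the labelled libraries, and by more in K562+L, with an interaction of -0.71 (SE 0.12, adjusted p = 3.5e-04). The interaction was largest for OPTN, with 1.99 (SE 0.10, adjusted p = 2.4e-08), a receptor that fell in K562+L and rose in the labelled libraries. PINK1 followed with 1.53 (SE 0.13, adjusted p = 1.7e-06), then BNIP3 with 1.26 (SE 0.13, adjusted p = 5.1e-06). BNIP3, like OPTN, fell in K562+L and rose in the labelled libraries.

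**Figure D4:**
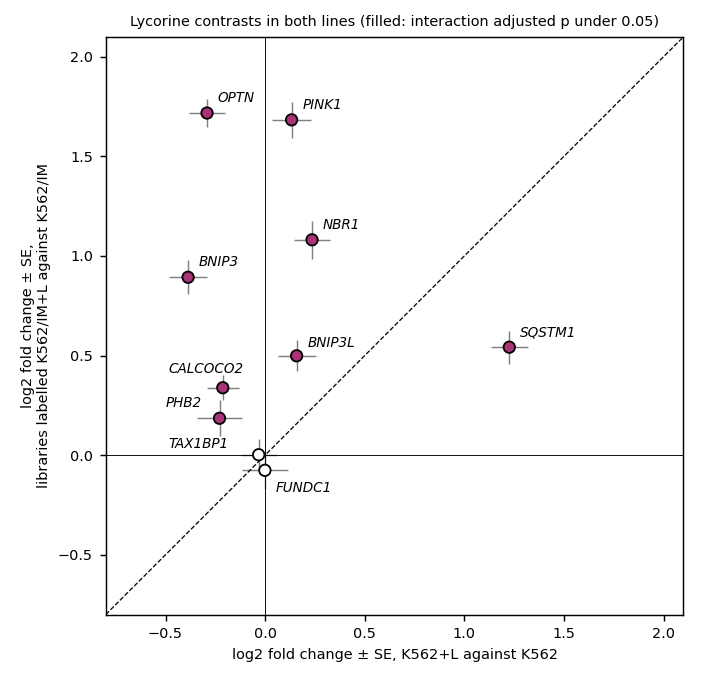
Each point is a receptor, with the log2FC of K562+L against K562 on the x axis and that of the labelled K562/IM+L libraries against K562/IM on the y axis, bars of 1 SE, and a dashed line where both are equal. SQSTM1 lies below that line, OPTN, PINK1, BNIP3 and NBR1 lie far above it, and the open points of TAX1BP1 and FUNDC1 lie near the origin.

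The order of the levels over the groups differed between receptors. For SQSTM1 it was K562+L, the labelled K562/IM+L libraries, K562/IM and K562, and no neighbours in that order overlapped. For CALCOCO2 it was the labelled libraries, K562/IM, K562 and K562+L, again without overlap of neighbours. NBR1, OPTN, BNIP3L and PINK1 were also highest in the labelled libraries. K562 and K562/IM overlapped for OPTN and NBR1, K562 and K562+L for BNIP3L, and both neighbouring pairs among the other three groups for PINK1. BNIP3 was highest in K562, and K562+L overlapped the labelled libraries. TAX1BP1 and PHB2 were highest in K562 as well, each overlapping K562+L.

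Over the 12 libraries, the gene outside the receptors whose log2 CPM followed each receptor most closely was found among 9321 genes with a mean of at least 10 CPM. PIGQ followed PINK1 with a Pearson correlation of 0.996, C11orf21 followed OPTN with 0.995 and ATG10 followed CALCOCO2 with 0.991. KAT2B followed NBR1 and CCDC124 followed PHB2, with 0.990 each. TSPAN13 followed BNIP3 with 0.986, and KRBA1 for SQSTM1 and KIAA0319L for BNIP3L reached 0.983 each. PAPOLA reached 0.975 for TAX1BP1 and TBC1D7 reached 0.850 for FUNDC1, the receptor whose 4 groups overlapped. The 12 points share the same 4 groups of 3, so these correlations are descriptions and carry no p.

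Of 14 receptors of other cargo, 13 were tested in these comparisons. In K562+L 6 were higher and 0 lower, beside 18.2% higher and 19% lower over all genes. Their median log2FC was 0.29 in K562+L, -0.17 in K562/IM and 0.059 in the labelled libraries against K562/IM, where that over all genes tested was -0.0001, 0.042 and -0.0069. NCOA4, the receptor of ferritin, rose from 144, 246 and 227 CPM to 419, 430 and 474, a log2FC of 1.10 (SE 0.18, adjusted p = 0.0037). K562 replicate 1 was the lowest of its group, and the treated libraries lay above all 3. In K562/IM against K562, 4 were higher and 4 lower, near the background of 57.1% called, with WDFY3, a scaffold for aggregates, at 2.13 (SE 0.24, adjusted p = 2.2e-04) and CALCOCO1, a receptor of the endoplasmic reticulum and Golgi, at 1.13 (adjusted p = 5.7e-04). In the labelled K562/IM+L libraries against K562/IM, 5 were higher and 4 lower, near the background of 66.8%. NCOA4 had the largest rise there, from 178, 177 and 186 CPM to 699, 677 and 785, a log2FC of 2.02 (SE 0.082, adjusted p = 1.3e-06). WDFY3 fell by 1.59 on the log2 scale (-1.59, adjusted p = 3.4e-04), and CALCOCO1 rose by 1.64 (adjusted p = 4.9e-04).

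Among 22 other genes of mitophagy, 3 were higher and 4 lower in K562+L, 1 higher and 12 lower in K562/IM, and 10 higher and 6 lower in the labelled libraries against K562/IM. The shares called in either direction lie near the backgrounds of 37.3%, 57.1% and 66.8% over all genes. By direction, the calls in K562/IM leaned lower, where 30.1% of all genes were higher and 27.1% lower. The median log2FC of the 22 genes was 0.079, -0.31 and 0.14 in these comparisons. That over all genes tested was -0.0001, 0.042 and -0.0069. VDAC1, a channel of the outer membrane, fell in K562+L with a log2FC of -0.78 (adjusted p = 5.6e-04) and in the labelled libraries with -0.85 (adjusted p = 3.9e-05). TOMM7, which holds PINK1 at the outer membrane, fell in K562+L with -0.69 (adjusted p = 0.013), was lower in K562/IM with -0.88 (adjusted p = 0.0023) and rose in the labelled libraries with 1.15 (adjusted p = 3.7e-04). FUNDC2, the relative of FUNDC1, took the same course, with -0.57 (adjusted p = 0.0057), -1.02 (adjusted p = 2.5e-04) and 1.41 (adjusted p = 2.4e-05). FKBP8, another outer membrane receptor, rose in the labelled libraries with 1.25 (adjusted p = 3.9e-05), and TOMM40, the import pore, fell with -1.09 (adjusted p = 3.2e-05).

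Among the 16 regulators of the receptors there were 3 higher and 3 lower in K562+L, 5 and 1 in K562/IM, and 6 and 6 in the labelled libraries against K562/IM, beside backgrounds of 37.3%, 57.1% and 66.8% called. Their medians were 0.23, 0.18 and 0.022, against -0.0001, 0.042 and -0.0069 over all genes tested. FOXO3, a transcription factor of autophagy genes, rose in K562+L from 37.7, 33.5 and 27.6 CPM to 80.1, 75.2 and 87.2, a log2FC of 1.29 (SE 0.13, adjusted p = 4.9e-04). NFE2L2 (NRF2), which acts on SQSTM1 transcription, rose by 0.28 (adjusted p = 0.034) in K562+L and fell by 0.65 on the log2 scale (-0.65, adjusted p = 1.1e-04) in the labelled libraries. ULK1, the kinase that starts autophagy, fell in K562+L with -0.38 (adjusted p = 0.022), was higher in K562/IM with 0.83 (adjusted p = 1.1e-04) and rose further in the labelled libraries with 1.13 (adjusted p = 1.2e-05). TFEB, a regulator of lysosome genes, fell in the labelled libraries with -1.19 (adjusted p = 6.3e-04). TANK, an adaptor of the OPTN kinase TBK1, fell in K562+L with -0.49 (adjusted p = 0.016) and rose in the labelled libraries with 0.86 (adjusted p = 4.3e-05).

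Of the ATG8 genes that receptors bind, 5 of 7 passed the filter, and MAP1LC3A and MAP1LC3C did not. In K562+L 1 was higher and 3 lower, in K562/IM 0 higher and 1 lower, and in the labelled libraries 4 higher and 0 lower, beside backgrounds of 37.3%, 57.1% and 66.8% called. Their medians were -0.36, -0.0090 and 0.36, against -0.0001, 0.042 and -0.0069 over all genes tested. MAP1LC3B rose in K562+L and in the labelled libraries, with log2FCs of 0.34 (adjusted p = 0.019) and 0.36 (adjusted p = 0.0082). It is nearly identical to MAP1LC3B2, and how reads shared by both were counted is not given. GABARAP read 68.2, 82.9 and 101 CPM in K562, 58.0, 63.8 and 55.2 in K562+L, 68.5, 69.8 and 66.1 in K562/IM, and 160, 175 and 125 in the labelled libraries. It fell in K562+L with a log2FC of -0.51 (adjusted p = 0.026) and rose in the labelled libraries with 1.19 (adjusted p = 9.6e-05).

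**Figure D5:**
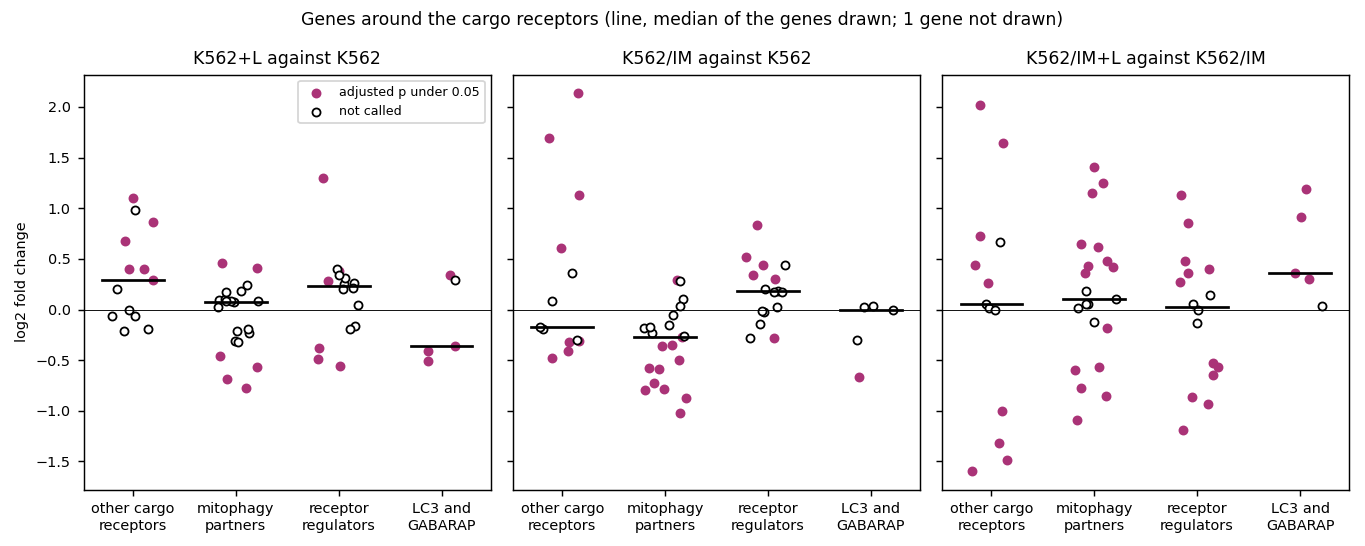
Each point is the log2FC of a gene of the 4 lists in 1 of 3 comparisons, filled where the adjusted p was under 0.05, with a line at the median of the genes drawn; 1 gene of the mitophagy list is not drawn. Most filled points of the mitophagy partners lie under 0 in K562/IM, whereas the filled LC3 and GABARAP points all lie above 0 in the labelled K562/IM+L libraries.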

How the data were processed

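Polyadenylated RNA of 12 libraries, 3 per group, was sequenced by a company. The authors deposited raw counts per gene symbol, without normalization. The submitters' processing notes name FastQC, STAR, StringTie, DESeq2 and hg38, and how the counting treated shared reads or strand is not given in the sources used here. Libraries were grouped by the cell line and treatment in their labels. The receptors, gene lists and tests were chosen with earlier results of these data known, and the promoter motifs after the counts were seen.

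In R 4.3.3, edgeR 4.0.16 was used to drop low genes (filterByExpr, minimum count 10), to normalize by TMM and to compare groups (quasi-likelihood test, Benjamini-Hochberg adjustment), with the 6 libraries of each of 4 pairwise comparisons and with all 12 for the interaction. The steps were tested on simulated data in which few genes differed. That test does not cover shares of called genes as large as those here. Positions and exon lengths came from GENCODE release 29 (GRCh38). Total counts were 82779101 to 87381704 in K562, 88481508 to 107344598 in K562+L, 75935140 to 98445779 in K562/IM and 75093844 to 92154227 in K562/IM+L. No 2 libraries of a group agreed within sampling noise.

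Besides the receptors, the genes named were up to 3 per list, comparison and direction with the largest absolute log2 fold change among called genes whose libraries do not overlap, the gene most alike to each receptor (log2 of CPM plus 0.5), marker genes and ABCB1, and only some of these are described. Alternatives were DESeq2 1.42.0, upper-quartile and RLE normalization, other low-count filters, counts divided by 4, all 12 libraries in one fit, the replicate number as a block, the fold threshold, the longest transcript for the ratio, and each library left out. The lists of markers and of genes around the receptors got no set test. 1 gene of the mitophagy list is not reported here, and the counts and medians over that list include it.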

Additional observations from a re-analysis of the deposited data

Results flagged for a closer look

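For 8 of the 10 receptors the differences labelled lycorine in K562/IM and in K562 were unlike, by the interaction term in edgeR's quasi-likelihood test (12 libraries). The effect in K562/IM, in the libraries as labelled, minus that in K562 was -0.71 (log2) for SQSTM1, 0.82 for NBR1 (adjusted p = 1.1e-04), 1.99 for OPTN, 0.53 for CALCOCO2 (adjusted p = 2.1e-04), 1.26 for BNIP3, 0.32 for BNIP3L (adjusted p = 0.031), 1.53 for PINK1 and 0.39 for PHB2 (adjusted p = 0.038). Among all 13995 genes tested 61.7% differed by the same rule. Leaving out each library in turn, the BNIP3L call was lost in 7 of 12 fits and the PHB2 call in 9 of 12. Groups of 3 libraries were not tested for outlying libraries.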

How the results depend on the processing

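The counts of receptors called in K562+L against K562 depended on the settings. The count was 3, and it was 5 with DESeq2 and 5 with all 12 libraries in one fit. With the replicate number as a block it was 1, since OPTN (adjusted p = 0.11) and BNIP3 (adjusted p = 0.065) were lost. Over the fits that each left out a library it ranged from 1 to 5, with 1 without K562+L replicate 1 or 3 and 5 without K562 replicate 1, and called genes among all tested fell from 4821 to 2871 without K562 replicate 2, 2971 without K562+L replicate 1 and 3058 without K562+L replicate 3. The cause was not tested. With the fold threshold as well, the counts were 1 in K562+L, 1 in K562/IM, 3 in the labelled libraries against K562/IM, 3 against K562 and 3 for the interaction. The leave-one-out counts were 4 to 5, 7 to 8, 7 to 9 and 6 to 7 in the latter 4. For libraries with the same replicate number, the deviations from the group means had correlations of -0.57 to 0.16. With groups of 3 this cannot tell whether the numbers stand for a shared batch. Under the block 4, 7, 7 and 7 receptors were called in those 4, and 3126 genes among all tested in K562+L.

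Directions reversed only for TAX1BP1, FUNDC1 and NBR1, in comparisons where each was not called and lay near 0. FUNDC1 in K562+L became 0.00032 with no low-count filter and ran from -0.078 to 0.085 with a library left out, and TAX1BP1 there from -0.091 to 0.0024. NBR1 in K562/IM became 0.025 with upper-quartile normalization. TAX1BP1 in the labelled libraries against K562/IM became -0.0043 with no filter, -0.0019 with the replicate block and -0.021 with all 12 libraries, and ran from -0.069 to 0.053 with a library left out. FUNDC1 in the labelled libraries against K562 ran from -0.058 to 0.086. For the interaction, FUNDC1 became 0.031 with upper-quartile normalization, and TAX1BP1 ran from -0.063 to 0.067 with a library left out. The differences in the BNIP3L to BNIP3 ratio kept their direction with each library left out, which groups without overlap must do. The longest transcript as the length shifts every log2 ratio alike, so it could not change these differences. Upper-quartile normalization moved the all-gene median from 0.020 to 0.17 in the labelled libraries against K562, where 4564 genes were then higher and 2883 lower in place of 3753 and 3693, and from -0.020 to 0.11 for the interaction. Each receptor was at 20 CPM or more in every library, and how far depth or the 3 libraries per group limited the calls was not tested.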
